A study of Mus musculus with 10 samples.

Results

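The genes described here are the integrin chains and 15 proteins that join them to the actin skeleton or signal from them, read in libraries made from mouse aorta. They were chosen by name: every row named Itga or Itgb with a chain number or letter, plus the adaptors talin (Tln1, Tln2), vinculin (Vcl), paxillin (Pxn), focal adhesion kinase (Ptk2), zyxin (Zyx), Ilk, Parva, Lims1, Lims2, kindlin-2 (Fermt2), Tns1, Tns3, Bcar1 and Src. This gave 42 of 35667 gene rows: 19 rows of α chains, 8 of β chains and 15 of adaptors. They carry 41 symbols, since 2 Ensembl identifiers are both named Itgam.

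Integrins are receptors made of an α and a β chain that hold a cell to the matrix around it. The α chain largely sets which ligand is bound, and most α chains of the vessel wall pair with β1. Inside the cell, talin and kindlin bind the β tail and switch the receptor on, and a plaque of adaptor proteins, the focal adhesion, ties it to actin filaments and to kinases. In the aorta this link carries the pulse-driven load between smooth muscle cells and the elastic and collagen matrix.

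RNA was sequenced from 5 libraries titled as Ovgp1 knockout (KO) and 5 as wild type (WT), all from C57BL/6 mouse aorta at 12 weeks of age. Ovgp1 encodes a secreted glycoprotein of the chitinase-like family. The titles name Ovgp1 for each KO library, whereas the genotype field names Ovgp1 to Ovgp5 for KO replicates 1 to 5. How the gene was targeted is not given in the sources used here, and no label states that the replicates were separate animals, so p-values measure only the spread between these libraries, which may be technical. Depth ran from 24434745 to 26694590 counts per library in KO and from 21242030 to 24396394 in WT.

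Some facts of the libraries bear on every value below. The KO libraries differed from each other by little more than counting error: the biological coefficient of variation within a group was 2.82% in KO and 21.3% in WT. Differences below come from a fit of 5 KO against 5 WT libraries. A fit with the KO counts summed into 1 sample, which takes its spread from WT alone, is set beside those of the members that passed or came near. Ovgp1 itself was higher in the libraries labelled KO, at 17.8 to 21.9 CPM (counts scaled to library size, by the TMM method throughout), against 1.98 to 4.69 CPM in WT. The log2 difference was 2.40 (SE 0.18; adjusted p 2.84e-05 in 5 against 5, 0.217 with KO as 1 sample), so the word KO refers here to the label only. Genes of the mitochondrial genome took 7.61% to 7.88% of counts in KO, against 16.2% and 13.2% in WT replicates 1 and 3 and at most 9.59% in the rest of WT. Smooth muscle marker genes, mostly Acta2 and Myh11, summed to 36274 to 36928 CPM in KO and 26401 to 40124 CPM in WT, so the tissue label matched its markers. Among them Tagln, usually an abundant smooth muscle transcript, had 21.7 ± 1.04 CPM in KO and 25.8 ± 2.75 CPM in WT (SD, n = 5 each). Of the 6 markers only 1, Tagln, had an adjusted p under 0.05 in 5 against 5 (log2 difference -0.25, adjusted p = 0.0458). Red cell markers summed to 18.7 to 21.0 CPM in KO and 63.7 to 309 CPM in WT, with 4 of 4 lower in KO, and nerve markers to 234 to 239 CPM in KO and 174 to 235 CPM in WT, with 4 of 7 higher.

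Of the 42 rows, 37 had enough counts to be tested and 6 passed an adjusted p of 0.05 in 5 against 5. The integrin chains Itga11 and Itgal and the tensin Tns3 were higher in KO, and the chains Itga10, Itga5 and Itga3 were lower. That is 16.2% of the tested rows, beside 14.3% of all 15710 tested genes (6.84% higher, 7.43% lower), so the share was near the background. The median log2 difference was 0.03 over the tested rows and -0.02 over all tested genes. With KO as 1 sample no row passed, and 0.0446% of all genes did. In that fit 4 rows (Tns3, Itga10, Itga11 and Itgal), or 10.8%, had an unadjusted p under 0.05, beside 3.72% of all genes.

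**Figure D1:**
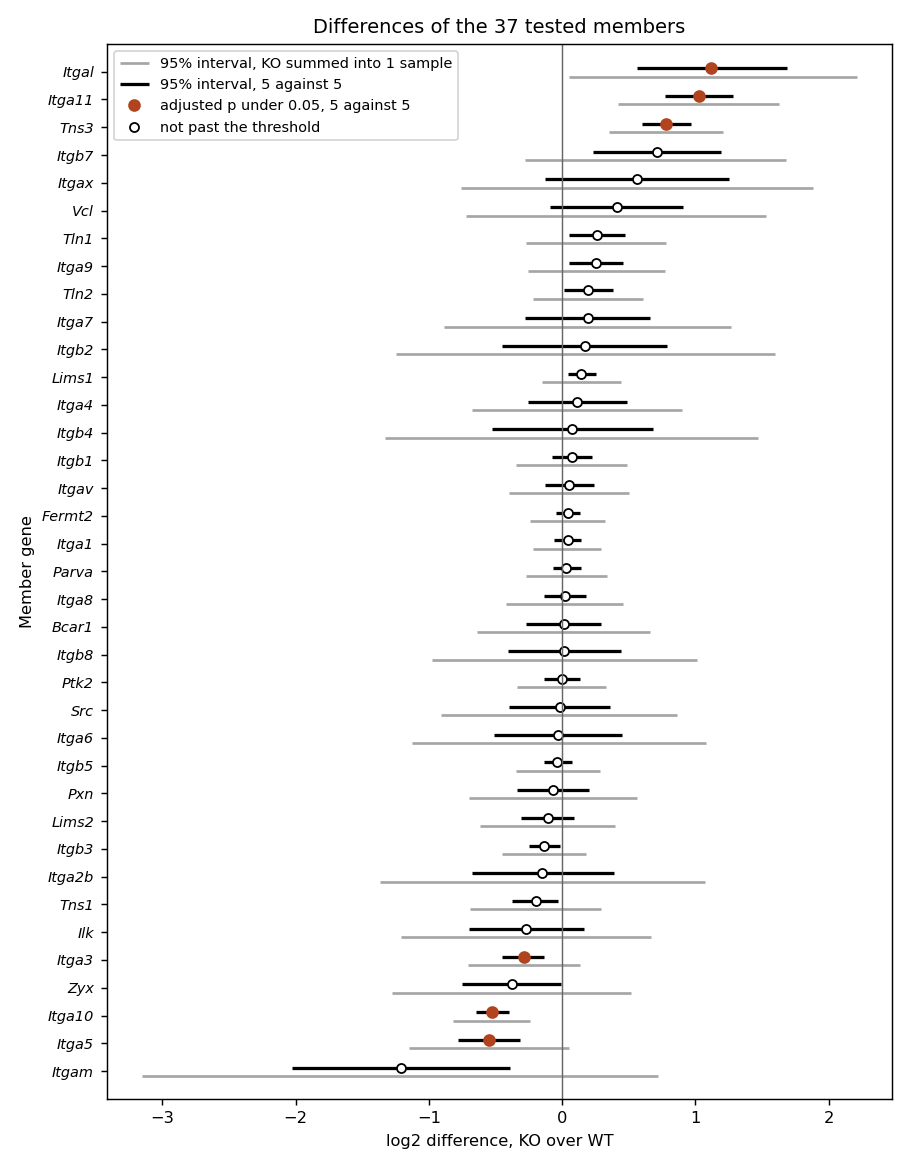
Log2 difference, KO over WT, of the 37 tested rows, sorted from highest to lowest; black bars are 95% intervals of 5 against 5, grey bars those with KO summed into 1 sample, and filled points passed an adjusted p of 0.05 in 5 against 5. The 6 filled points lie between -0.55 and 1.12, and the grey bars of Itga5 and Itga3 cross 0.

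Groups could also be compared by rank alone. For 6 tested rows (Itga11, Itgal, Tns3, Itga9, Lims1 and Tln1) the lowest KO value exceeded the highest WT value, and for 3 (Itga10, Itga5 and Itga3) the reverse held, beside 7.38% and 7.22% of all genes (14.6% in either direction). The KO mean lay inside the WT range for 24 of the 37 rows. Across all genes the KO mean lay outside the WT range for 28.7%. The 5 rows that were not tested, Itga2, Itgad, Itgae, Itgb6 and the second Itgam identifier, averaged at most 0.305 CPM in either group.

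Levels between genes are compared per length, as RPKM (TMM-scaled CPM per kilobase of exon). The β chain of highest mRNA level was Itgb1 and the α chain Itga8. Itgb1 averaged 504 ± 4.4 RPKM in KO and 480 ± 46.1 RPKM in WT, and Itga8 averaged 319 ± 3.33 RPKM in KO and 314 ± 33.6 RPKM in WT (SD, n = 5 each). Next came the adaptor Tns1, then Itgb5, Lims2, Itga5, Zyx, Tln1, Fermt2 and Itga9. The lowest tested rows were Itgax, at 0.157 ± 0.0388 RPKM in KO and 0.106 ± 0.0422 RPKM in WT, and Itgal, at 0.218 ± 0.0455 RPKM in KO and 0.100 ± 0.0335 RPKM in WT.

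**Figure D2:**
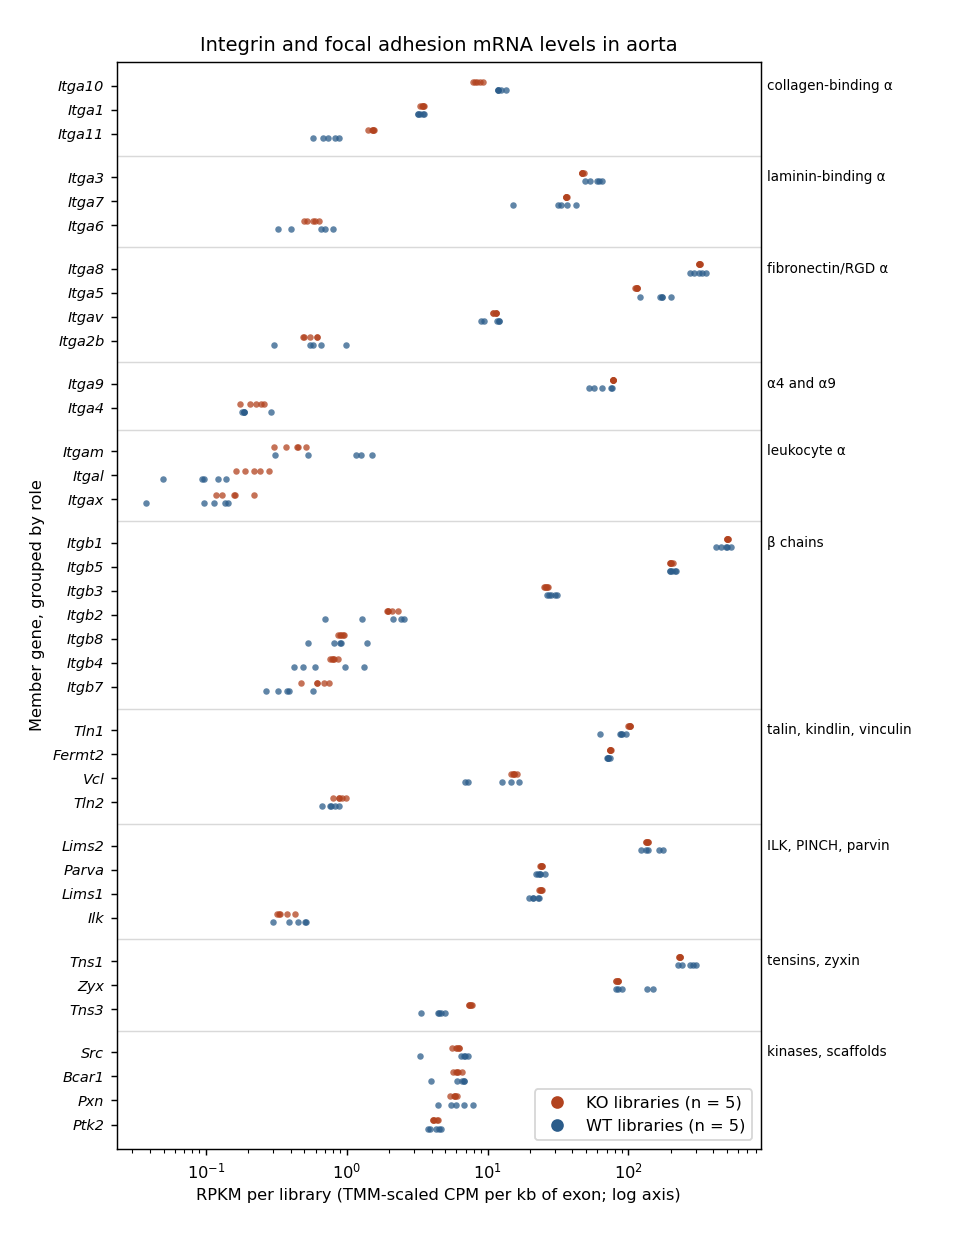
RPKM on a log axis of each tested row in each library, grouped by role, with KO points drawn above WT points. Itgb1, Itga8 and Tns1 lie highest and Itgax and Itgal lowest, and the ranges of KO and WT points overlap in most rows.

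Among the collagen-binding α chains, which all pair with β1, Itga11 and Itga10 moved in opposite directions. Itga11, the fibrillar collagen receptor known from fibroblasts, had 7.86, 8.01, 7.72, 7.27 and 7.91 CPM in KO, against 3.80, 4.49, 4.24, 3.50 and 2.97 CPM in WT. Every KO value lay above every WT value, and the log2 difference was 1.03 (SE 0.12, 2.04-fold, adjusted p = 0.000329; 0.951 with KO as 1 sample). Of 6 fibroblast markers, Lum, Cd34 and Dcn were higher in KO and the other 3 did not pass, with log2 differences of 0.13 for Pi16, -0.05 for Pdgfra and -0.34 for Col1a1. Their summed level, mostly Dcn, was 2504 to 2559 CPM in KO, against 1916 to 2238 CPM in WT. In bulk RNA, fewer cells of a type and less RNA per cell cannot be told apart, here and below, and the part of the markers in the difference was not tested.

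Itga10, a collagen receptor known chiefly from cartilage cells, had 48.3, 41.1, 46.0, 42.3 and 43.8 CPM in KO, against 61.3, 61.8, 70.0, 64.4 and 61.4 CPM in WT. The groups did not overlap, and the log2 difference was -0.53 (SE 0.06, 0.694-fold, adjusted p = 0.000288; 0.847 with KO as 1 sample). Of 6 tested cartilage markers, Comp and Chad were higher in KO and the other 4 did not pass, with log2 differences of 0.80 for Matn3, 0.18 for Hapln1, -0.17 for Acan and -0.34 for Sox9. Their summed level, mostly Comp and Acan, was 171 to 181 CPM in KO, against 127 to 163 CPM in WT, and their part in the Itga10 difference was not tested. Itga10 lies on chromosome 3 (96645584 to 96664519 in GRCm38), 9.31 megabases from Ovgp1. Another annotated gene on the same strand, Gm42957, shares 33.5% of the exon bases of Itga10. Gm42957 had at most 4 counts in KO and 8 in WT. How reads in shared bases were counted is not given, and the part of the overlap in the Itga10 level was not tested.

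Itga1, which binds basement membrane collagen and is the usual collagen receptor of smooth muscle, had 63.8, 65.2, 61.3, 66.2 and 64.7 CPM in KO, against 65.8, 62.0, 65.1, 60.0 and 59.9 CPM in WT. Its coefficient of variation was 2.93% in KO and 4.45% in WT, and its log2 difference of 0.04 had 95% bounds of -0.22 and 0.29 with KO as 1 sample. Itga2, which lies 21.0 kilobases from Itga1 on chromosome 13, averaged 0.305 CPM in KO and 0.170 CPM in WT and was not tested.

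**Figure D3:**
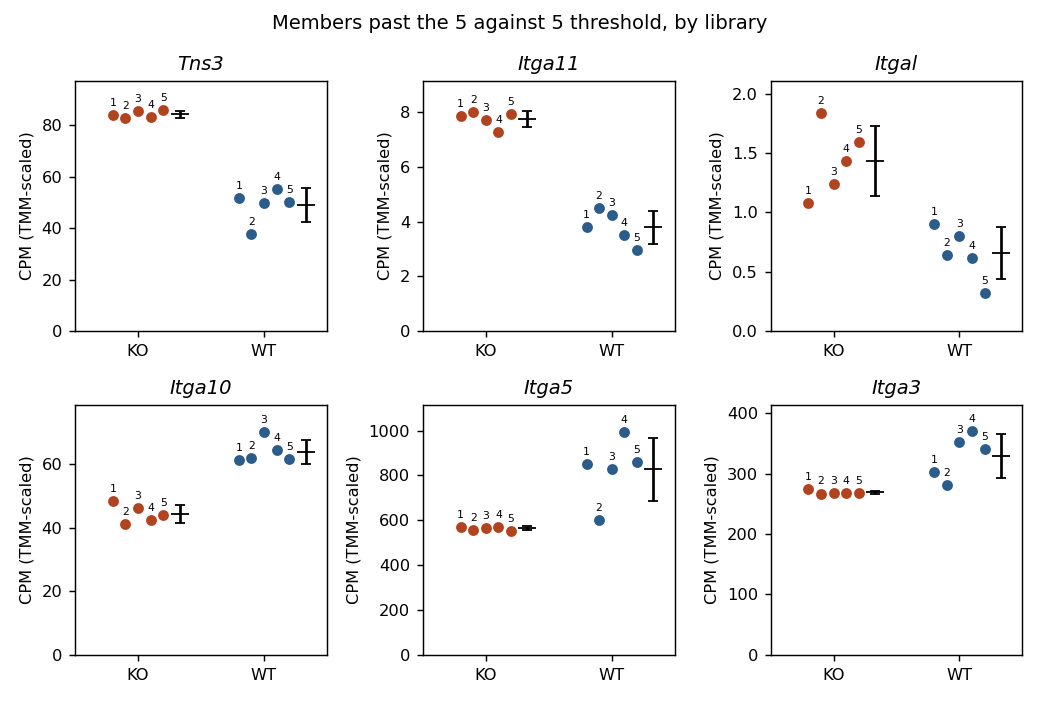
CPM by library, KO left and WT right, of the 6 rows that passed in 5 against 5; numbers are replicate numbers and bars are the mean ± SD of 5 libraries. Tns3, Itga11 and Itgal lie higher in KO, and Itga10, Itga5 and Itga3 lie lower, with WT replicate 2 of Itga5 the WT value nearest KO.

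Of the laminin-binding chains, Itga3 was lower in KO, with 274, 267, 268, 268 and 268 CPM, against 303, 281, 352, 371 and 340 CPM in WT. The gap between the groups was narrow: the highest KO library had 274 CPM and the lowest WT library, replicate 2, had 281 CPM. The log2 difference was -0.29 (SE 0.07, 0.816-fold, adjusted p = 0.0194; 0.999 with KO as 1 sample), and scaling by library totals alone gave -0.22 with an adjusted p of 0.100. Without any one of KO replicates 2 to 5 the adjusted p was 0.0511 to 0.0530.

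Itga7, the laminin receptor of muscle cells, had 292, 290, 297, 293 and 292 CPM in KO, against 295, 122, 343, 269 and 254 CPM in WT. WT replicate 2 lay far below the other libraries of both groups, and the log2 difference of 0.19 had bounds of -0.89 and 1.27 with KO as 1 sample. Itga6, a laminin receptor of epithelium and endothelium, had 4.50 to 5.77 CPM in KO and 2.91 to 7.20 CPM in WT.

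Among the chains that bind the RGD motif of fibronectin and related ligands, Itga5 differed and Itga8 did not pass. Itga5, the α chain of the classical fibronectin receptor, had 571, 559, 567, 572 and 551 CPM in KO, against 853, 600, 830, 992 and 861 CPM in WT. All KO values lay below all WT values, though WT replicate 2 was close to KO. The log2 difference was -0.55 (SE 0.11, 0.682-fold, adjusted p = 0.00629); KO as 1 sample gave bounds of -1.15 and 0.05 (adjusted p = 0.999). Fn1, which encodes fibronectin and was the most abundant gene of the ligand list below, had 4747 to 4796 CPM in KO and 1913 to 4645 CPM in WT, and its log2 difference of 0.60 (SE 0.19) did not pass (adjusted p = 0.0642).

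Itga8, a receptor for nephronectin and other RGD ligands that marks vascular smooth muscle, had 2353, 2384, 2335, 2321 and 2364 CPM in KO, against 2471, 2627, 2323, 2003 and 2153 CPM in WT. The KO values lay inside the WT range, and the log2 difference of 0.02 had bounds of -0.42 and 0.46 with KO as 1 sample. Its exons share 372 bases with an antisense gene, E030013I19Rik, that had 9361 to 10143 counts in KO and 6411 to 10241 counts in WT, and the strand setting of the counts is not given in the sources used here. Itgav, the partner of several β chains in receptors that release active TGF-β, had 117 to 124 CPM in KO and 96.9 to 130 CPM in WT.

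Itga2b, the fibrinogen receptor chain of platelets, had 2.67 to 3.33 CPM in KO and 1.67 to 5.39 CPM in WT, and its groups overlapped. The platelet markers Pf4, Ppbp, Gp9, Gp1ba, Gp6 and Treml1 summed to 12.5 to 14.7 CPM in KO and 15.3 to 33.2 CPM in WT, and 1 of the 3 tested, Ppbp, was lower in KO. Their part in the Itga2b values was not tested.

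Itga9, which binds tenascin C and Svep1, had 598, 596, 597, 598 and 600 CPM in KO, against 585, 497, 579, 405 and 441 CPM in WT. The KO libraries lay above all WT libraries, but the log2 difference of 0.25 (SE 0.09) had an adjusted p of 0.0983, and bounds of -0.26 and 0.77 with KO as 1 sample. Its side of the threshold depended on single WT libraries and on the processing. Without WT replicate 1 it was 0.32 (adjusted p = 0.0428) and without replicate 3 it was 0.31 (adjusted p = 0.0411). With library totals it was 0.34 (adjusted p = 0.0161), with no filter 0.30 (adjusted p = 0.0133) and with limma-voom 0.41 (adjusted p = 4.41e-06). Itga4, the VCAM1 receptor chain of leukocytes, had 3.15, 2.86, 2.43, 3.62 and 3.44 CPM in KO, against 4.03, 2.61, 2.59, 2.51 and 2.60 CPM in WT, and WT replicate 1 stood apart from its group.

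The leukocyte α chains were all low and did not move together. Itgal, the α chain of LFA-1 on lymphocytes, had 1.08, 1.84, 1.24, 1.43 and 1.59 CPM in KO, against 0.906, 0.641, 0.798, 0.618 and 0.325 CPM in WT. The groups were apart and differed by 1.12 on the log2 scale (SE 0.26, 2.18-fold, adjusted p = 0.0152; 0.999 with KO as 1 sample). The lymphocyte markers summed to 159 to 162 CPM in KO and 7.34 to 15.3 CPM in WT. These sums were mostly Ighm, at 157 ± 1.45 CPM in KO and 9.35 ± 3.29 CPM in WT (SD, n = 5 each). Of 5 tested, 2 (Ighm and Cd79b) were higher in KO. Cd3g, Cd3e and Cd79a did not pass, with log2 differences of 0.62, 0.03 and -0.61. No marker of the list was at 0 in all 10 libraries, and the part of these cells in the Itgal difference was not tested.

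Itgam, the α chain of Mac-1 on monocytes and granulocytes, had 2.27, 2.56, 2.21, 1.86 and 1.52 CPM in KO, against 2.67, 7.61, 1.55, 6.38 and 5.85 CPM in WT. WT replicates 2, 4 and 5 were high and replicates 1 and 3 were within or near the KO values, and the log2 difference of -1.21 (SE 0.37) had an adjusted p of 0.0524 and bounds of -3.15 and 0.72 with KO as 1 sample. Without WT replicate 3 it was -1.43 (adjusted p = 0.00576) and without replicate 1 it was -1.35 (adjusted p = 0.0351), and without both it was -1.65 (adjusted p = 4.22e-05). With all libraries it was -1.20 in DESeq2 (adjusted p = 0.0101) and -1.43 in limma-voom (adjusted p = 0.000152). The granulocyte markers summed to 0.112 to 0.479 CPM in KO, against 0.544, 1.54, 0.449, 3.50 and 4.27 CPM in WT replicates 1 to 5; none of the 6 had enough counts to be tested, and Mpo and Elane had at most 5 counts in any library. Their part in the Itgam values was not tested.

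Itgax, known from dendritic cells and macrophages, had 0.564 to 1.05 CPM in KO and 0.181 to 0.684 CPM in WT, and did not pass. Macrophage markers summed to 245 to 254 CPM in KO and 166 to 273 CPM in WT, and 2 of 6 (Csf1r and Adgre1) were higher in KO. Lyz2, C1qa, Cd68 and Mrc1 did not pass, with log2 differences of 0.23, 0.20, -0.01 and -0.18. Itgal, Itgam, Itgax and Itgad lie in this order on chromosome 7, with 0.728 megabases between Itgal and Itgam, 11.1 kilobases between Itgam and Itgax and 3.72 kilobases between Itgax and Itgad. Itgad averaged 0.0228 CPM in KO and 0.0193 CPM in WT, and Itgae, a chain of lymphocytes in epithelia, averaged 0.273 CPM in KO and 0.226 CPM in WT. The second identifier named Itgam, on the same strand, shares 3450 exon bases with the first, which is 68.7% of the exon bases of the first. The second had 0 counts in each KO library and at most 1 in a WT library. The first had 41 to 68 counts in KO and 31 to 178 counts in WT. The part of this overlap in the Itgam counts was not tested.

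None of the 7 tested β chains passed. Itgb1, the common partner of the α chains above, had 2041, 2086, 2047, 2064 and 2049 CPM in KO, against 1840, 2193, 1708, 2001 and 2048 CPM in WT. Itgb5, an αv partner that binds vitronectin, had 703, 712, 731, 698 and 711 CPM in KO, against 758, 704, 768, 721 and 699 CPM in WT. Both overlapped between the groups, with log2 differences of 0.07 (bounds -0.35 and 0.49 with KO as 1 sample) and -0.04 (bounds -0.35 and 0.28).

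Itgb3, which pairs with αv and with the platelet chain, averaged 153 ± 3.88 CPM in KO and 169 ± 11.6 CPM in WT (SD, n = 5 each; adjusted p = 0.105). Itgb7, the partner of Itgae and Itga4 on lymphocytes, had 1.32 to 2.07 CPM in KO and 0.741 to 1.60 CPM in WT, differing by 0.71 on the log2 scale (SE 0.22, adjusted p = 0.0517; bounds -0.28 and 1.68 with KO as 1 sample). Without WT replicate 3 the log2 difference was 0.89 and passed (adjusted p = 0.0134). It also passed with library totals (0.79, adjusted p = 0.0306), DESeq2 (0.72, adjusted p = 0.0225) and limma-voom (0.74, adjusted p = 0.00947). Itgb2, the common β chain of Itgal, Itgam and Itgax, had 5.94 to 7.06 CPM in KO and 2.13 to 7.78 CPM in WT. Itgb8, an αv partner, had 9.51 to 10.6 CPM in KO and 5.84 to 15.4 CPM in WT. Itgb4, the hemidesmosome chain, had 5.33 to 6.10 CPM in KO and 2.95 to 9.35 CPM in WT, and its WT values were highest in replicates 4 and 5. Itgb6, an epithelial chain, averaged 0.0831 CPM in KO and 0.250 CPM in WT. The epithelial markers summed to 8.77 to 10.2 CPM in KO and 8.87 to 13.8 CPM in WT. Nearly all of each sum was Krt18, which averaged 8.84 CPM in KO and 10.9 CPM in WT. Of the 6 markers only 1, Krt18, had enough counts to be tested, and it did not pass.

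The make-up of integrin mRNA was almost constant among KO libraries and varied among WT libraries. Itga8 made up 50.9% to 51.9% of summed α chain RPKM in KO and 41.5% to 55.9% in WT. Itga5 made up 18% to 18.7% in KO and 19.1% to 30.7% in WT, and Itga9 made up 12.4% to 12.6% in KO and 8.04% to 10.9% in WT. Among β chains Itgb1 made up 68.1% to 69.0% in KO and 62.7% to 69.7% in WT. These shares have no test of their own, and a share falls when another chain rises.

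**Figure D4:**
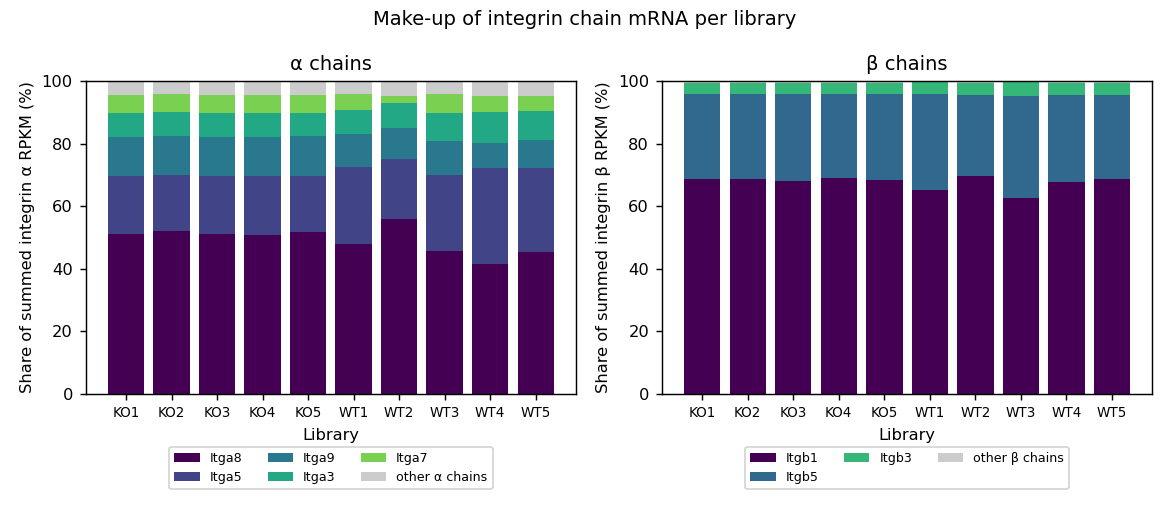
Share of summed α chain RPKM (left) and β chain RPKM (right) in each library, KO libraries first, stacked from the most abundant chain at the base. Itga5 takes at most 18.7% of α chain RPKM in KO and at least 19.1% in WT, while Itgb1 takes 62.7% or more of β chain RPKM in each library.

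Ratios taken within a library do not depend on scaling between libraries, and 10 were tested, two-sided, with an exact permutation of the group labels, whose smallest possible p is 0.00794. None passed after adjustment over the 10. The log2 ratio of Itga5 over Itgb1 averaged -1.87 ± 0.0279 in KO and -1.26 ± 0.355 in WT, a difference of -0.61 (exact permutation p = 0.0317, adjusted p = 0.0992). For Itga3 over Itgb1 the difference was -0.36 (exact permutation p = 0.0397, adjusted p = 0.0992), and WT replicate 2 was again at the KO level in both ratios. Without that library, both ratios passed (adjusted p = 0.0265). The smallest p that this test can give with KO as 1 sample is 0.167.

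The adaptors that switch integrins on did not pass, although Tln1 lay higher in each KO library. Tln1, the talin found in most tissues, had 1006, 977, 997, 1001 and 999 CPM in KO, against 854, 613, 888, 940 and 870 CPM in WT. WT replicate 2 was far below the rest, and the log2 difference of 0.26 (SE 0.10) had an adjusted p of 0.0981 and bounds of -0.27 and 0.78 with KO as 1 sample. Without WT replicate 2 the log2 difference was smaller, 0.18, and passed (adjusted p = 0.0157). It also passed with library totals (0.34, adjusted p = 0.0355) and with no filter (0.31, adjusted p = 0.0315). The same held with DESeq2 (0.27, adjusted p = 0.0492) and with limma-voom (0.20, adjusted p = 0.00141). The related Tln2 had 14.6 to 18 CPM in KO and 12.3 to 16.2 CPM in WT.

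Fermt2, the kindlin of smooth muscle and fibroblasts, had 382, 382, 383, 382 and 388 CPM in KO, against 372, 371, 367, 370 and 385 CPM in WT. Vcl, which strengthens the talin to actin link, had 120, 125, 127, 127 and 133 CPM in KO, against 59.0, 103, 56.3, 137 and 120 CPM in WT. In WT, replicates 1 and 3 were at about the same low level of Vcl, and the KO values lay inside the WT range. The log2 difference of Vcl was 0.41 with bounds of -0.72 and 1.53 with KO as 1 sample, and that of Fermt2 was 0.04 with bounds of -0.24 and 0.32. The coefficient of variation in WT was 38.2% for Vcl and 1.82% for Fermt2, the highest and the lowest among the 26 tested rows with a mean of at least 10 CPM. Another gene, Ap3m1 on the opposite strand, shares 25.5% of the exon bases of Vcl and had 1795 to 1900 counts in KO and 1172 to 1639 counts in WT.

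The CArG box, a run of A and T between CC and GG that serum response factor binds in many genes of the contractile cytoskeleton, was searched for in RefSeq promoter windows (GRCm38.p6, 250 bases before to 50 after the start). Windows were matched for 28 of the 41 symbols, and it was found in 3 of them, Vcl, Fermt2 and Itgb6, beside 1.81% of all genes. The stretches that hold it are shown because they place the widest and the narrowest varying adaptor beside each other. The box is in capitals, and each stretch is read 5′ to 3′ on the gene's strand.
Vcl: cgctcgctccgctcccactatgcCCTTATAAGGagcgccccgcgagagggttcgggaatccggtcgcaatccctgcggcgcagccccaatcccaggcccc
Fermt2: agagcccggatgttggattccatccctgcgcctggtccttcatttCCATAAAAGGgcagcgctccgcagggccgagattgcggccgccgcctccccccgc
Itgb6: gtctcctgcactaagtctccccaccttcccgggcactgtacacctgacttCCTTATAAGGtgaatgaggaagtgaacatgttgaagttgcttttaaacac
The stretch of Vcl is chr14:20929148-20929247 on the plus strand, that of Fermt2 chr14:45530215-45530314 on the minus strand and that of Itgb6 chr2:60673694-60673793 on the minus strand. The box begins 227 bases before the start in Vcl, 204 in Fermt2 and 50 in Itgb6. For Itgb6 the start is an inner one of RefSeq, inside the span that GENCODE M21 gives the gene (60598292 to 60722643). The letters of Vcl and Itgb6 are the same within the box; Vcl averaged 126 CPM in KO and 95.2 CPM in WT and Itgb6 was close to 0. A match describes the letters only.

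A further 5 motifs were searched on both strands of the same windows. GGGGCGGGG was in 6 members (12.9% of all genes), GGAATG in 3 (16.6%), TGACTCA or TGAGTCA in 3 (5.95%), CACGTG in 2 (8.09%) and TATAAA in 1 (15.7%). GGAATG, the site of TEAD factors, was in Itga10, Itgb1 and Vcl. Of these 3 genes Itga10 was lower in KO, and Itgb1 and Vcl overlapped between the groups.

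Among Ilk, PINCH and parvin, which form a complex under the β tail, no gene passed. Lims2, which encodes PINCH2, had 422, 410, 411, 421 and 416 CPM in KO, against 506, 373, 539, 420 and 408 CPM in WT, with replicates 1 and 3 the highest. Parva, α-parvin, had 246, 245, 240, 249 and 242 CPM in KO, against 240, 260, 223, 232 and 238 CPM in WT. Lims1, which encodes PINCH1, had 114 to 119 CPM in KO and 96.2 to 113 CPM in WT. The groups of Lims1 did not overlap, and its log2 difference was 0.14 (SE 0.05, adjusted p = 0.0746). Its bounds were -0.15 and 0.44 with KO as 1 sample. Lims1 passed without WT replicate 4 (adjusted p = 0.0386) and with DESeq2 (0.15, adjusted p = 0.0201). The log2 ratio of Lims2 over Lims1 averaged 1.84 ± 0.0357 in KO and 2.08 ± 0.290 in WT (exact permutation p = 0.0238, adjusted p = 0.0992).

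Ilk, the pseudokinase at the centre of that complex, was counted at only 0.877 to 1.17 CPM in KO and 0.815 to 1.40 CPM in WT. In GENCODE M21, 89.7% of its exon bases are shared with the opposite-strand genes Taf10 and Rrp8, whereas its partners Lims2 and Parva averaged 416 and 245 CPM in KO and 449 and 239 CPM in WT. The part of that overlap in its level was not tested.

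None of the kinases and scaffolds of the adhesion passed in 5 against 5. Ptk2, focal adhesion kinase, had 48.9, 52.4, 51.7, 48.3 and 48.3 CPM in KO, against 45.9, 53.2, 44.8, 55.3 and 51.1 CPM in WT, a 0.997-fold level. Pxn, the scaffold that recruits it, had 47.2, 48.4, 49.7, 44.5 and 48.1 CPM in KO, against 45.3, 36.3, 48.5, 64.1 and 55.7 CPM in WT. Their KO values lay inside the WT range, and with KO as 1 sample the log2 bounds were -0.34 and 0.33 for Ptk2 and -0.70 and 0.56 for Pxn. In limma-voom the log2 difference of Pxn was -0.21 and passed (adjusted p = 0.0207). Src and its substrate Bcar1 had 24.4 to 27.6 CPM and 25.8 to 29.8 CPM in KO, against 14.5 to 31.7 CPM and 18 to 31.0 CPM in WT, and WT replicate 2 gave the lowest value of both. Their log2 bounds with KO as 1 sample were wide, -0.91 and 0.86 for Src and -0.64 and 0.66 for Bcar1.

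Tns3 was the adaptor that passed. Tensins bind β tails and actin and mark the long adhesions along fibronectin fibres. Tns3 had 83.9, 82.9, 85.6, 83.1 and 86.0 CPM in KO, against 51.9, 37.6, 50, 55.4 and 50.2 CPM in WT. The groups lay well apart, by 0.78 on the log2 scale (SE 0.08, 1.72-fold, adjusted p = 0.000261); KO as 1 sample gave bounds of 0.35 and 1.21 (adjusted p = 0.848). Its difference was 0.71 to 0.83 when any 1 library was left out.

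Tns1, the main tensin of this tissue, had 3649, 3649, 3725, 3739 and 3699 CPM in KO, against 3618, 4412, 3831, 4800 and 4567 CPM in WT. The groups overlapped and the log2 difference was -0.20 (SE 0.08, adjusted p = 0.114), with bounds of -0.69 and 0.29 with KO as 1 sample. The difference was -0.24 (adjusted p = 0.0431) without WT replicate 1 and -0.29 (adjusted p = 1.5e-05) with limma-voom. The log2 ratio of Tns3 over Tns1 averaged -5.45 ± 0.0247 in KO and -6.44 ± 0.286 in WT, a difference of 0.99 whose exact permutation p of 0.00794 is the smallest this test can give (adjusted p = 0.0794). Zyx, which gathers at strained stress fibres, had 455, 438, 454, 454 and 438 CPM in KO, against 806, 451, 735, 439 and 482 CPM in WT, and WT replicates 1 and 3 stood far above the rest.

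The WT libraries varied among themselves far more than the KO libraries did. The coefficient of variation was larger in WT than in KO for 36 of the 37 tested rows, with a median of 3.63% in KO and 16.0% in WT. WT replicates 1 and 3 shared high Zyx and Lims2 and low Vcl. Replicate 2 was lowest for 13 of the 37 rows, Itga7, Tln1, Src and Bcar1 among them, and replicate 4 was highest for 13. Markers of several cell types also differed among these libraries. Adipocyte markers summed to 676 to 708 CPM in KO, against 547, 742, 360, 2128 and 1588 CPM in WT replicates 1 to 5. Endothelial markers summed to 254 to 264 CPM in KO, against 202, 502, 139, 584 and 488 CPM in the same WT libraries. Smooth muscle markers, with the KO range given above, summed to 40042, 32145, 40124, 26401 and 29265 CPM in WT replicates 1 to 5. WT replicates 1 and 3, with high Zyx and Lims2, were thus the libraries with the highest mitochondrial share and the lowest endothelial and adipocyte sums, and the part of these in these values was not tested.

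**Figure D5:**
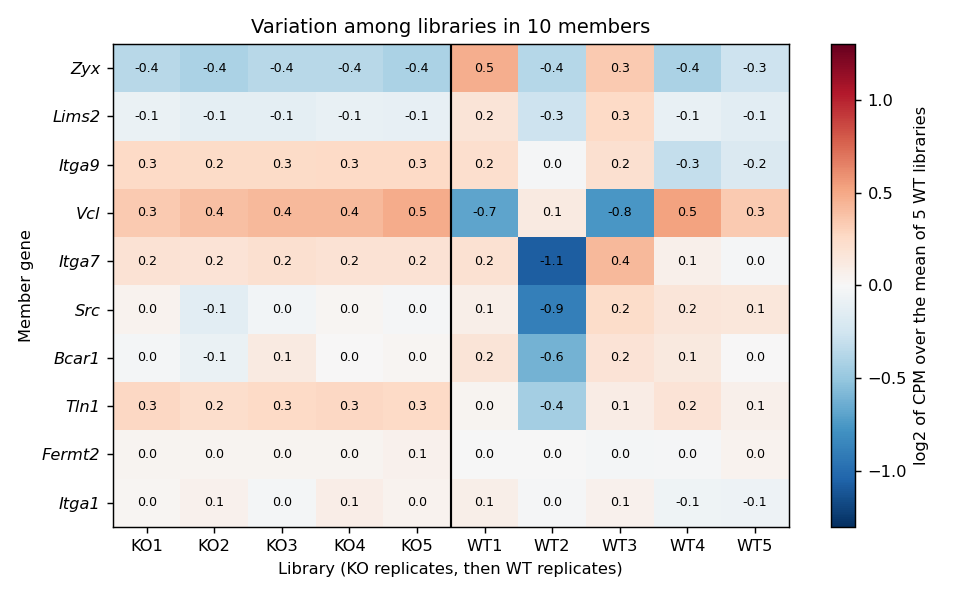
Log2 of the CPM in each library over the mean of the 5 WT libraries for 10 members, KO columns first; the numbers in the cells are the values. WT replicates 1 and 3 are high for Zyx and Lims2 and low for Vcl, WT replicate 2 is low for Itga7, Src, Bcar1 and Tln1, and Fermt2 and Itga1 are near 0 throughout.

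Leaving out WT replicates 1 and 3 together gave 10 rows that passed, of which 6 were those named above; the others were Itga9, Itgb7, Itgam and Tns1. That was 27.0% of the tested rows, beside 27.2% of all genes tested in that setting. With KO as 1 sample and those libraries left out, an alternative added after seeing the data, no row passed.

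The wider pathway was described by lists of genes that are not members. Of 64 other focal adhesion genes, 63 were tested, and 8 were higher and 4 lower in KO (19.0%, beside 14.3% of all genes), with a median log2 difference of 0.03. Fhl2, a LIM protein that shuttles between adhesions and the nucleus, averaged 22.3 ± 1.08 CPM in KO and 13.6 ± 1.59 CPM in WT (SD, n = 5 each; log2 difference 0.72, adjusted p = 0.000384). Dock1, which activates Rac downstream of Bcar1, averaged 48.4 ± 1.12 CPM in KO and 40.6 ± 2.05 CPM in WT (log2 difference 0.26, adjusted p = 0.00505). Lower in KO were Sorbs3, the vinculin-binding protein vinexin, and Flnc, the actin crosslinker filamin C of muscle. Sorbs3 averaged 127 ± 3.57 CPM in KO and 164 ± 7.07 CPM in WT (log2 difference -0.36, adjusted p = 0.000592), and Flnc averaged 215 ± 3.87 CPM in KO and 328 ± 58.3 CPM in WT (log2 difference -0.61, adjusted p = 0.00377). The others that passed were Sorbs2, Kank1, Palld, Synm, Svil and Kank2, higher in KO, and Fhl1 and Sharpin, lower in KO.

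Of 44 listed integrin ligand genes, 43 were found and 37 tested. Of these, 6 were higher and 2 lower in KO (21.6%, beside 14.3% of all genes), with a median log2 difference of 0.03. Svep1, a ligand of α9, averaged 66.6 ± 2.36 CPM in KO and 43.1 ± 7.41 CPM in WT (SD, n = 5 each; log2 difference 0.63, adjusted p = 0.00311). Thbs2, a matricellular thrombospondin, averaged 70.4 ± 2.77 CPM in KO and 56.0 ± 3.93 CPM in WT (log2 difference 0.33, adjusted p = 0.00322). Col3a1, the fibrillar collagen chain of vessel walls, averaged 1019 ± 10.7 CPM in KO and 794 ± 96.0 CPM in WT (log2 difference 0.36, adjusted p = 0.0117). Tgfb1, whose latency peptide carries the RGD motif that αv integrins bind, was lower, at 11.2 ± 0.517 CPM in KO and 15.4 ± 1.41 CPM in WT (log2 difference -0.46, adjusted p = 0.00331). Tnc, Spp1 and Tgfbi were also higher in KO, and Col4a1 lower. With KO as 1 sample no gene of either list passed.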

How the data were processed

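RNA was measured in 10 aorta libraries, grouped by title. The deposited files give reads per gene as whole-number counts, not normalized (35667 Ensembl genes, of which 35519 matched GENCODE M21, GRCm38). The submitters' processing notes name Bowtie 0.12.2, mm8 and mm9 without roles. No source used here gives the counting tool or strand setting.

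The members and lists were chosen with earlier results of these data known. Counts were tested with edgeR 4.0.16 (R 4.3.3; TMM, filterByExpr with minimum count 10 and minimum total 15, robust quasi-likelihood F test, no covariate) over 15710 genes, 5 KO against 5 WT, with Benjamini-Hochberg adjustment and a threshold of 0.05; SE is the log2 difference over the square root of F. The same fit was run with KO summed into 1 sample, since KO libraries agreed closely (chi-square per degree of freedom 1.77 to 3.25 within KO, 11.0 to 154 within WT, over the 12509 genes averaging 50 counts or more). Intervals are 95% and, in KO, cover little beyond counting error. On simulated data the fits were only required to give most planted changes the right direction, which does not bear on the p-values or intervals.

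Values per library are given for members that passed and the 2 of highest mean CPM in each role group, with the 4 smallest p of each pathway list; Vcl was added after its values were seen. Alternatives were DESeq2 size factors, library totals, no mitochondrial genes, no filter, DESeq2 1.42.0, limma-voom (limma 3.58.1) with sample weights, a replicate block and libraries left out. Exon overlaps come from GENCODE M21.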

Additional observations from a re-analysis of the deposited data

Results flagged for a closer look

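In 7 of the 74 groups of 5 libraries examined (37 tested rows, KO and WT apart), 1 library stood outside the rest by Dixon's criterion, which chance meets in about 1 in 20 groups. Among KO libraries, Itga3 was at 274 CPM in replicate 1 and at 267 to 268 CPM in the others, and Fermt2 was at 388 CPM in replicate 5 and at 382 to 383 CPM in the others. Both gaps are small in size. Among WT libraries, replicate 2 was low for Tln1 (613 CPM, others 854 to 940 CPM), for Src (14.5 CPM, others 28.3 to 31.7 CPM) and for Bcar1 (18 CPM, others 27.5 to 31.0 CPM). Itga4 was high in WT replicate 1 (4.03 CPM, others 2.51 to 2.61 CPM), and Fermt2 was high in WT replicate 5 (385 CPM, others 367 to 372 CPM).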

How the results depend on the processing

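The count of members that passed, 6 in 5 against 5, was 10 with DESeq2 (27.0%, beside 18.9% of all genes), 14 with limma-voom (37.8%, beside 41.2%), 10 without WT replicates 1 and 3 (27.0%, beside 27.2%), 4 with the replicate block (10.8%, beside 8.40%), 0 with KO summed into 1 sample and 0 with KO summed and WT replicates 1 and 3 left out. Leaving out 1 KO library gave 13.5% to 16.2% of members, beside 8.1% to 8.79% of all genes. Leaving out 1 WT library gave 16.2% to 24.3% of members, beside 11.1% to 16.8% of all genes. These were 5 to 9 members. Other focal adhesion genes (12 of 63 in the main fit) gave 32 with limma-voom, where 41.2% of all genes passed. They gave 25 without WT replicates 1 and 3 (27.2% of all genes) and 10 to 16 without 1 library (8.1% to 16.8% of all genes). Integrin ligands (8 of 37 in the main fit) gave 19, 16 and 5 to 10 in the same settings. Over all genes 2242 passed, against 2975 with DESeq2, 6477 with limma-voom, 4386 without WT replicates 1 and 3, 1319 with the replicate block, 7 with KO summed, and 1287 to 2678 (1 to 5 with KO summed) without 1 library. Library totals made 76.1% of calls over all genes higher in KO and no filter 65.7%, against 47.9%; the median log2 difference over all genes was then 0.05 and -0.10, against -0.02. Among members, library totals gave 6 higher and 2 lower (21.6%, beside 13.1% of all genes). With no filter 8 members passed (19%, beside 5.52% of all genes). That background held 35667 genes, against 15710 in the main fit. It thus included many genes of few counts, and the shares cannot be compared like for like. The members past the threshold with limma-voom included Itgb3 (-0.12, adjusted p = 0.00889) and Itga8 (0.12, adjusted p = 0.0156).

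The replicate block pairs libraries by number alone. Deviations from the group mean, over the tested genes, correlated at -0.0402 to 0.0399 between same-numbered KO and WT libraries. Deviations among KO libraries were little more than counting error, so these values cannot show whether the numbers pair the libraries. Under the block Itga3 (adjusted p = 0.0524) and Itgal (0.0613) did not pass. All 6 members that passed kept their direction under each alternative.

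Members near 0 changed sign. With library totals Itgb5 was at 0.04, Itga6 at 0.05 and Src at 0.06; with no filter they were at 0.01, 0.02 and 0.03. With limma-voom Itgb2 was at -0.01, Itgb4 at -0.23, Itgb5 at 0.01 and Itgav at -0.06. With the replicate block Itga6 was at 0.03 and Src at 0.02. Without WT replicates 1 and 3, Itgb2 was at -0.20, Itgb4 at -0.16, Itgb5 at 0.02, Lims2 at 0.07, Itgb8 at -0.16, Itgav at -0.07, Src at 0.12 and Itga2b at 0.23, and the ratios of Itga1 and Itga8 over Itgb1 were at 0.10 and 0.08. The cause was not tested. Without 1 library, ranges crossed 0 for Bcar1 (-0.10 to 0.07), Itga2b (-0.31 to 0.09), Itga6 (-0.17 to 0.12), Itga8 (-0.03 to 0.08) and Itgav (-0.01 to 0.10). They also did for Itgb2 (-0.02 to 0.32), Itgb4 (-0.07 to 0.38) and Itgb8 (-0.13 to 0.23). The same held for Ptk2 (-0.04 to 0.03), Pxn (-0.15 to 0.04) and Src (-0.17 to 0.05). Ratios over Itgb1 that crossed 0 were those of Itga1 (-0.08 to 0.02), Itga7 (-0.10 to 0.37) and Itgav (-0.04 to 0.02). With KO summed, Itgb4 was at -0.05 without WT replicate 3 and Itga6 at 0.11 without WT replicate 4. Of the 10 ratios, 0 to 4 passed without 1 library, the 4 being without WT replicate 2.

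Precision limits what the rows that did not pass can show: 95% intervals extended 0.09 to 0.82 on the log2 scale to each side in 5 against 5 (median 0.23) and 0.26 to 1.93 with KO summed (median 0.60).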
